A study of Mus musculus with 6 samples.

Results

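Lysozyme and monocyte marker genes are described here in regulatory T cells (Treg) from wild-type mice and from mice that lack Mbd2, a protein that binds methylated DNA and represses genes. The 10 genes are Lyz1, Lyz2, F13a1, Csf1r, Mpeg1, Ifitm6, Cd14, Emr1 (current name Adgre1), Lgals3 and Fn1. They were chosen by measured values of these same arrays, because they were higher in the knockout cells, so their differences between genotypes are given as a description, with no test. All 10 were found, with 15 of the 22626 probe sets, each of which carries a single gene symbol. Both groups were CD4+CD25+ T cells separated with magnetic beads from Balb/c mice, with 3 arrays from wild-type (WT) and 3 from MBD2-/- animals, and the labels used here name no other allele, agent, age or pooling for either group. The submitters call the knockout samples independent, and p-values measure the spread between these samples only.

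Monocytes arise in the bone marrow, circulate in blood and become macrophages in tissues. Growth and survival of the lineage depend on the colony-stimulating factor 1 receptor, encoded by Csf1r. Its cells kill and digest microbes with secreted lysozyme and with the membrane-attacking protein of Mpeg1, sense bacterial lipopolysaccharide through Cd14, and leave matrix and clotting proteins such as fibronectin (Fn1) and factor XIII (F13a1). Lyz2 is shared with neutrophils, and Lgals3, Fn1 and F13a1 are also made by cells outside the lineage. None of the 10 is a gene by which T cells are defined. In bulk RNA of a sorted population, fewer cells of a type and less RNA per cell cannot be told apart.

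WT replicate 3 stood apart before any gene was considered. Its Pearson correlation with the other arrays, across probe sets, lay between 0.749 and 0.767, and the remaining pairs lay between 0.956 and 0.997. The lowest of those remaining values all involved knockout replicate 2. Values are therefore given with 6 arrays, with 5 (without WT replicate 3) and, where stated, with 4 (also without knockout replicate 2). The T cell label was borne out by Cd3e, which lay between 9.94 and 10.90 on the log2 scale. The Treg marker Foxp3 read 8.83, 8.74 and 6.93 in WT and 7.98, 6.62 and 8.17 in knockout. Il2ra (CD25) read 8.04, 7.91 and 7.17 in WT and 7.46, 6.49 and 7.80 in knockout on its brighter probe set. Knockout replicate 2 was the lowest of the 6 arrays for each of these markers. The targeted transcript Mbd2 was lower on all 3 knockout arrays on both of its probe sets. All levels are deposited log2 values after robust multi-array averaging (RMA), and a difference of 1 is a change of 2-fold. A probe set counted as dim, and stayed out of the tests, when its mean over the 6 arrays was under 5.18.

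The lysozyme genes come first because their sequences limit how they can be read. Lyz1 and Lyz2 are neighbouring copies of one gene on mouse chromosome 10. The 120 bases before each start site differed at 9 positions (92.5% identical), and the first 50 transcribed bases differed at 1 (98% identical). The promoters are printed below from RefSeq (GRCm38.p6, minus strand, 5′ to 3′), at chr10:117282273-117282392 for Lyz2 and chr10:117292869-117292988 for Lyz1, with the differing bases in capitals.
Lyz2: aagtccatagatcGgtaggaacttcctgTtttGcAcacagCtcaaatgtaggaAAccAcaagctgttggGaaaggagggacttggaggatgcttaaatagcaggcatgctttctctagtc
Lyz1: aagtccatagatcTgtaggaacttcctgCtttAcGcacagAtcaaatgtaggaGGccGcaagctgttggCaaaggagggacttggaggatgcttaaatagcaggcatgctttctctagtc

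Promoters of 3 further genes show how unlike the set is in CG dinucleotides, the sites that Mbd2 binds when methylated. RefSeq windows of 250 bases before to 50 bases after the start were matched for 6 of the 10 genes, in 7 windows (F13a1 has 2), and Csf1r, Cd14, Adgre1 and Fn1 had no entry. Lgals3 held 18 CG dinucleotides in its window, and the other windows held 1 (Lyz2), 2 (Lyz1, Mpeg1 and Ifitm6), 3 and 5 (F13a1). Over all 32851 windows the median was 7, with quartiles of 3 and 20. Lgals3 and Mpeg1 are shown over 200 bases before the start, at chr14:47373660-47373859 and chr19:12460570-12460769 (both plus strand), with CG in capitals. Ifitm6 is shown over 250 bases, at chr7:141016893-141017142 (minus strand), with capitals at GGAAGT on either strand, the core bound by ETS factors such as PU.1, the myeloid regulator. GGAAGT occurred in 4 of the 7 windows (Lyz1, Lyz2, Ifitm6 and 1 of F13a1) and in 23.8% of all windows, which describes letters and not binding.
Lgals3: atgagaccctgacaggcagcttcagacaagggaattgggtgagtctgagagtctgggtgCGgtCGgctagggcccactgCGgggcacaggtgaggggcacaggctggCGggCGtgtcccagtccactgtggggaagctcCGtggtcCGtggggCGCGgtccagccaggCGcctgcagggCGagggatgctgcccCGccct
Mpeg1: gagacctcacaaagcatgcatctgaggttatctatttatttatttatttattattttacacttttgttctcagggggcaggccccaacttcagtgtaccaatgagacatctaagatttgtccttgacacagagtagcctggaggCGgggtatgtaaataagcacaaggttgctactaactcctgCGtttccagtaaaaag
Ifitm6: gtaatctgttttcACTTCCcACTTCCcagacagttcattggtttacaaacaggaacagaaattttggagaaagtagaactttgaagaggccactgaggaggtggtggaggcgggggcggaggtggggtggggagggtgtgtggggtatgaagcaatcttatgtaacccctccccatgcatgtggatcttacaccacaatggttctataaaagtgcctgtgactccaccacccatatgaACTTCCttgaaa

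The antibacterial proteins of the set are the lysozymes, which cleave bacterial cell walls, and Mpeg1, which forms pores in engulfed bacteria. Lyz2, the lysozyme of macrophages and neutrophils, was measured by 1 probe set at 5.89, 7.13 and 6.80 on the WT arrays and at 11.20, 11.82 and 10.81 on the knockout arrays. The lowest knockout array was 3.68 above the highest WT array. The group means were 6.61 ± 0.64 and 11.27 ± 0.51 (SD, n = 3 each), a log2 difference of 4.67 with 6 arrays and 4.76 with 5.

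Lyz1, known as the lysozyme of Paneth cells in the gut, had 3 probe sets that gave different pictures. The brightest, 1436996_x_at, read 7.01, 8.24 and 8.31 in WT and 12.19, 12.83 and 11.94 in knockout, and 1439426_x_at differed by 4.39 against 4.47 for the brightest. The third, 1450822_at, read 4.17, 4.27 and 4.42 in WT and 4.37, 4.74 and 4.34 in knockout, a difference of 0.20 with groups that overlapped, and its 6 values were all under the cutoff for dim probe sets. By the array maker's naming, the suffix _x_at marks probe sets with probes that can also bind other transcripts, and both high Lyz1 probe sets carry it. In all 3 Lyz1 probe sets and in the Lyz2 probe set, WT replicate 1 was the lowest array and knockout replicate 2 the highest, so this order does not separate them. How much of the signal of the 2 high Lyz1 probe sets came from Lyz2 RNA was not tested, so a rise of Lyz1 itself is uncertain.

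Mpeg1 read 5.57, 6.16 and 5.19 in WT and 7.91, 9.02 and 7.83 in knockout. All knockout arrays were above all WT arrays, by at least 1.68. The difference was 2.61 with 6 arrays (6.12-fold), 2.39 with 5 and 2.01 with 4.

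The surface receptors of the set are Csf1r, Cd14 and Adgre1. Csf1r, the receptor for the growth factor CSF1, read 5.45, 5.57 and 5.57 in WT and 8.28, 9.57 and 7.96 in knockout on its brightest probe set. The WT values lay within 0.13 of each other while the knockout arrays spanned 1.61. The difference was 3.07 (8.42-fold), and the 2 other Csf1r probe sets gave 2.25 and 1.17, also without overlap. With 4 arrays the 3 probe sets gave 2.61, 1.83 and 0.80.

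Cd14, the co-receptor that hands lipopolysaccharide to TLR4, had the only brightest probe set whose groups overlapped. It read 4.40, 4.59 and 5.81 in WT and 5.65, 7.44 and 5.93 in knockout, so that WT replicate 3 lay above knockout replicate 1. The median of all probe sets on WT replicate 3 was 5.78. The difference was 1.41 with 6 arrays, 1.84 with 5 and 1.30 with 4, and without WT replicate 3 the groups did not overlap. As the Cd14 WT mean was under the cutoff, the change is at least 1.93-fold with 6 arrays and at least 2.23-fold with 5. Adgre1 (Emr1), which encodes a surface receptor widely used to mark mouse macrophages, had the lowest difference of the set. Its WT values were 5.14, 5.13 and 5.32 and its knockout values 5.84, 6.77 and 5.69. The difference was 0.90 (1.87-fold) with 6 arrays and 0.96 (at least 1.89-fold) with 5, where the WT mean of 5.14 was under the cutoff. It was 0.63 with 4 arrays, where the gap between the groups was 0.55.

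Ifitm6 and Lgals3 encode an interferon-induced transmembrane protein of myeloid cells and galectin-3, a sugar-binding protein. Ifitm6 read 4.81, 4.99 and 5.62 in WT and 8.69, 10.14 and 8.85 in knockout. Its WT mean of 5.14 was under the cutoff, so the change is given as at least 14.9-fold, with WT arrays raised to the cutoff, and at least 16.5-fold without WT replicate 3. Lgals3 read 7.30, 7.37 and 5.59 in WT and 9.06, 10.12 and 8.89 in knockout. WT replicate 3 differed from the mean of the other WT arrays by -1.74, and the difference went from 2.60 with 6 arrays to 2.02 with 5 and 1.64 with 4.

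The matrix and clotting genes are F13a1, the catalytic subunit of factor XIII, which crosslinks fibrin, and Fn1. F13a1 read 4.86, 5.10 and 4.87 in WT and 8.41, 8.63 and 8.25 in knockout. All WT values were under the cutoff and the knockout arrays spanned only 0.39, so the change was at least 9.49-fold with 6 or 5 arrays. Fn1 read 5.25, 5.10 and 6.36 in WT and 7.43, 7.98 and 7.37 in knockout on probe set 1426642_at. The difference was 2.02 (4.06-fold) with 6 arrays and 2.42 (at least 5.19-fold) with 5, since WT replicate 3 was the highest WT array. The other Fn1 probe set, 1437218_at, was under the cutoff on all 6 arrays, at 4.18 to 4.48 in WT and 4.31 to 4.46 in knockout, and its groups overlapped.

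**Figure D1:**
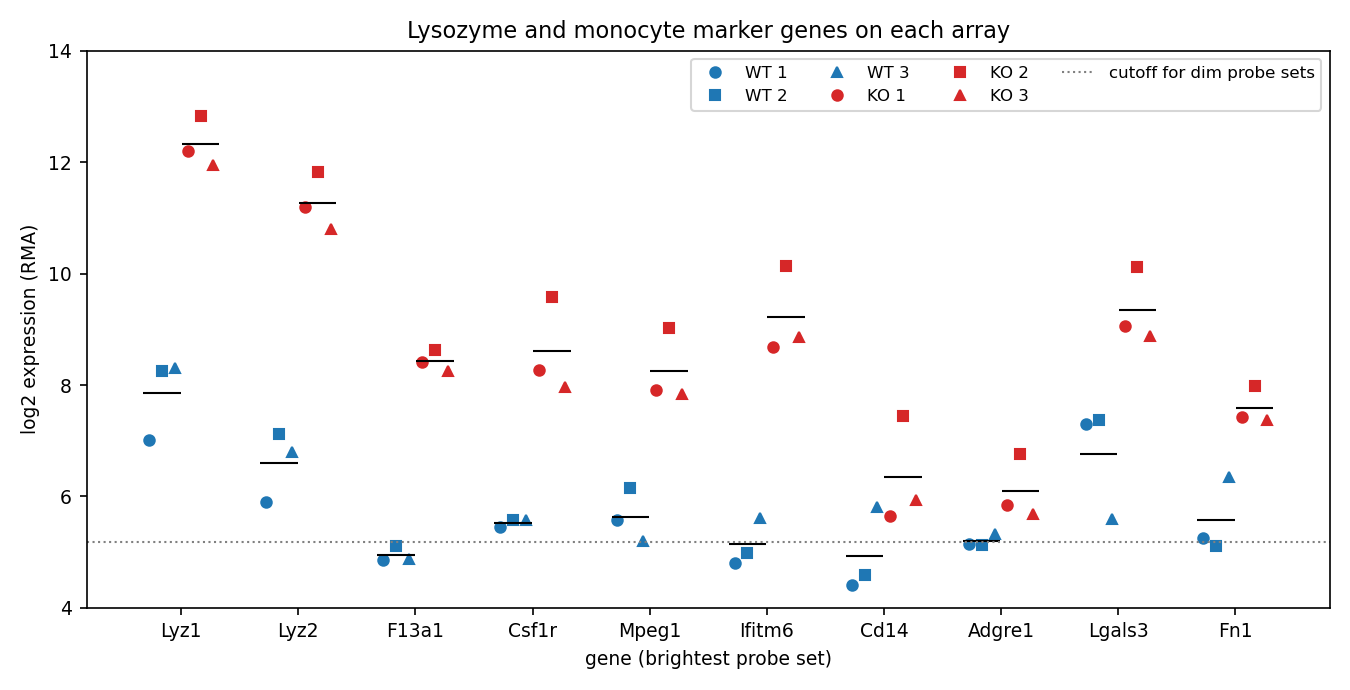
RMA log2 level of each of the 10 genes (brightest probe set) on each array, with WT in blue, knockout in red, a symbol per replicate and a bar at each group mean (n = 3). Knockout arrays lay above all WT arrays for 9 genes, Cd14 being the exception, and knockout replicate 2 (red square) was highest for all 10.

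**Figure D2:**
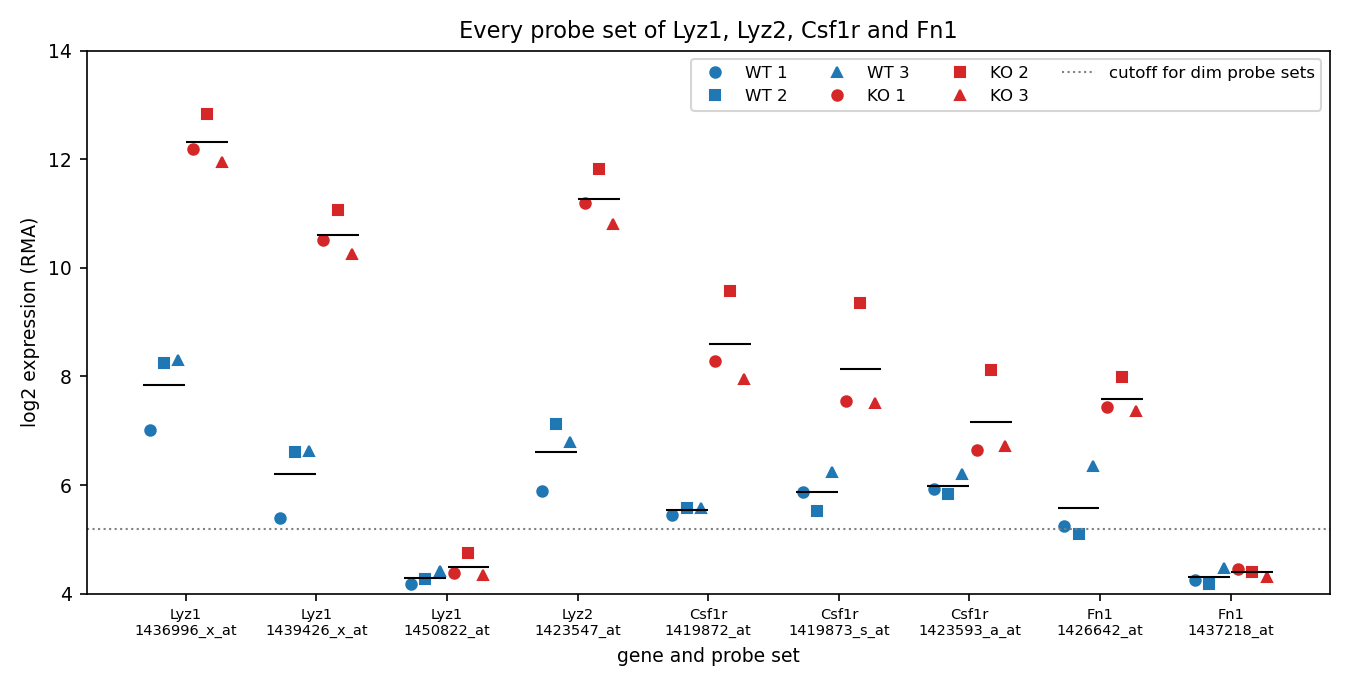
RMA log2 level on each array for every probe set of Lyz1, Lyz2, Csf1r and Fn1, with bars at group means (n = 3) and a dotted line at the cutoff of 5.18. The third Lyz1 probe set and the second Fn1 probe set stayed under the cutoff on all arrays, while the other probe sets separated the groups.

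Across the set, knockout arrays lay above all WT arrays for 12 of 15 probe sets with 6 arrays, where 10.4% of all 13576 tested probe sets did the same. With 5 arrays it was 15 of 15 (15.6% of all tested), and with 4 arrays 15 of 15 (26.4%). Since the genes were chosen on this contrast, nothing is read from these counts. The log2 differences of the 10 genes had a median of 2.84 and ran from 0.90 (Adgre1) to 4.67 (Lyz2), beside a median of 0.15 over all tested probe sets. With 5 arrays the medians were 2.76 and -0.06.

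The order of the knockout arrays among themselves is given as a description too, since a high array raises the knockout mean on which the genes were chosen. Knockout replicate 2 was the highest knockout array for 14 of the 15 probe sets, the dim second Fn1 probe set being the exception. The same held for 30.5% of all tested probe sets, and that array was the lowest for 55.4%, and nothing is read from the comparison of these shares. Its level above the mean of knockout replicates 1 and 3 ran from 0.31 for F13a1 to 1.64 for Cd14, with a median of 1.07, against -0.10 over all tested probe sets. The genes differed in this excess. F13a1, Fn1, Lyz1 and Lyz2 were at 0.31, 0.58, 0.76 and 0.81, while Adgre1, Lgals3, Mpeg1, Ifitm6, Csf1r and Cd14 were at 1.005, 1.14, 1.15, 1.37, 1.46 and 1.64. Knockout replicates 1 and 3 were closer to each other, with differences between them from -0.28 (Cd14) to 0.40 (Lyz2).

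The marker lists of other cell types had their own excess in knockout replicate 2. The median over tested genes was 1.57 for tissue macrophage markers, 1.30 for classical monocyte markers, 0.62 for neutrophil markers, 0.56 for B cell markers, 0.45 for dendritic cell markers and 0.28 for eosinophil, basophil and mast cell markers. The filter on dim probe sets used a mean that includes this array. Dim genes were thus kept more readily where it was high, which can raise these medians. Non-classical monocyte markers had a median of 0.28 and ran from -0.87 to 2.10, with knockout replicate 2 the lowest knockout array for 2 of 7. Of the 14 neutrophil markers, Mpo, Elane, Prtn3 and Ctsg, enzymes of early granules, were lowest in knockout replicate 2 among the knockout arrays, with the excess down to -1.11. T cell and Treg markers went the other way, with a median of -0.73, and that array was the lowest knockout array for 11 of 11 of them. Their part in the values of the 10 genes was not tested. Among WT arrays, Lyz1 was 1.24, Lyz2 1.23 and Mpeg1 0.59 higher in replicate 2 than in replicate 1, while the other 7 genes differed by at most 0.24. The neutrophil and B cell lists were also higher there, with median differences of 0.51 and 0.80. The classical monocyte list was at 0.22, the dendritic cell list at 0.14, the eosinophil, basophil and mast cell list at 0.03, the tissue macrophage list at -0.00079 and the non-classical monocyte list at -0.04.

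**Figure D3:**
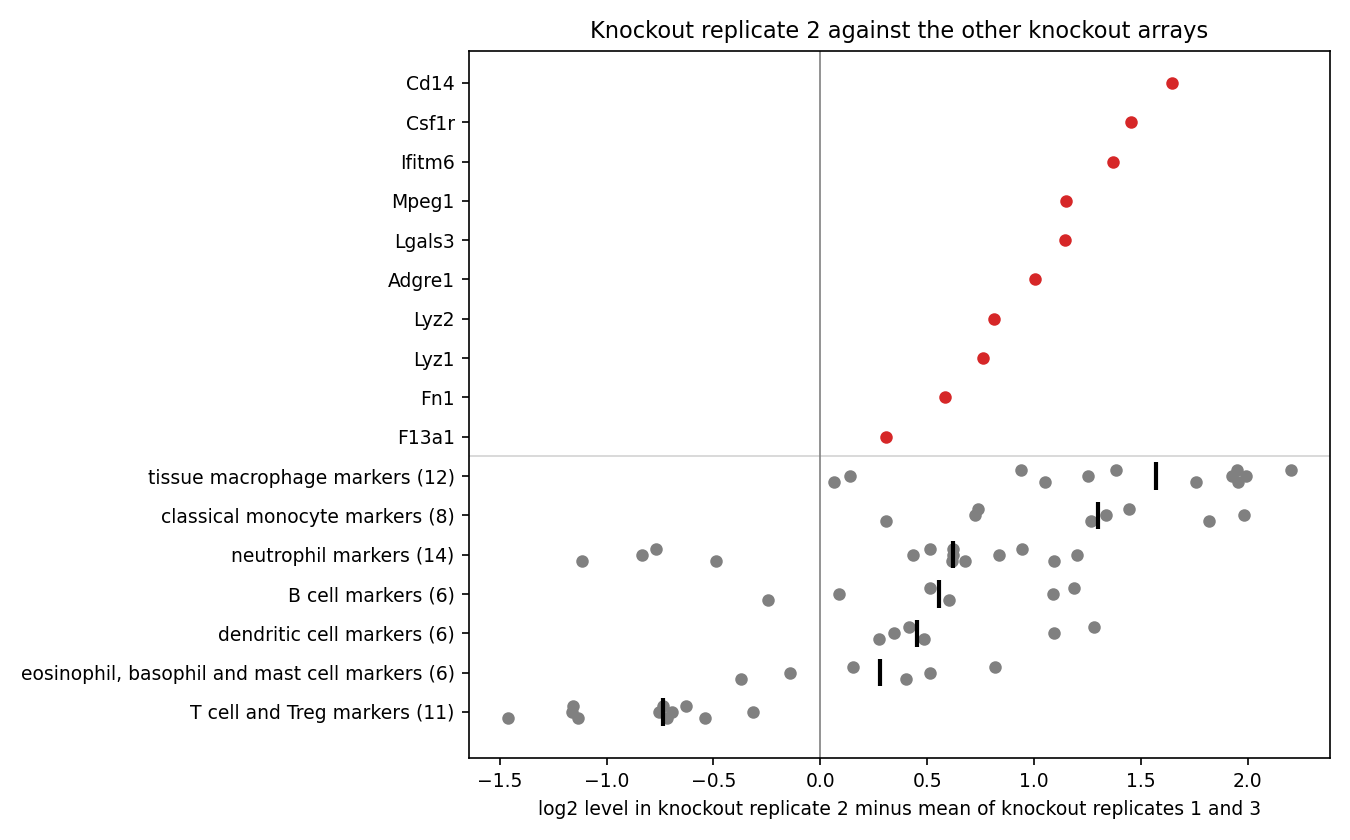
Log2 level in knockout replicate 2 minus the mean of knockout replicates 1 and 3, for the 10 genes (red) and for the tested genes of 7 marker lists (grey, number tested in brackets, black bar at the list median). The 10 genes lay between 0.31 and 1.64, and the 11 T cell and Treg markers were all below 0.

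Genes related to the 10 were taken from 9 families and pathways, with 42 of 76 listed genes tested. None passed an adjusted p under 0.05 in limma with 6 arrays or with 5, where 0.103% and 0.67% of all tested probe sets passed as higher and 0% and 0.729% as lower. At an unadjusted p under 0.05 there were 9 with 6 arrays (8 higher and 1 lower) and 21 with 5 (13 higher and 8 lower). Of all tested probe sets, 3.48% were higher and 0.597% lower at that level with 6 arrays, and 6.95% and 14.6% with 5. Their median difference was 0.24 with 6 arrays and 0.04 with 5, beside 0.15 and -0.06 over all tested probe sets. With 4 arrays 22 passed, 12 higher and 10 lower, in a fit where 8.37% of all tested probe sets passed as higher and 10.3% as lower. That fit compares 2 arrays with 2, and in the lists below "passed" refers to it. The 13 and the 12 higher genes include Lbp and Adgre4, which were dim in WT and tested only because the knockout arrays were high.

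Of the colony-stimulating factor ligands and receptors, 7 of 12 were tested. Csf1, the ligand of Csf1r, passed as lower at -0.70 but was at -0.0057 with 6 arrays (adjusted p = 0.997) and -0.44 with 5 (adjusted p = 0.398). Csf2ra, Csf2rb, Csf3r and Flt3, receptors of myeloid growth factors, passed as higher. Csf2ra was at 1.27 with 6 arrays (adjusted p = 0.415), 1.16 with 5 (adjusted p = 0.0609) and 0.98 with 4 (adjusted p = 0.00315). Flt3 was at 0.62, 0.81 and 0.72 in the same fits (adjusted p = 0.829, 0.0607 and 0.00796).

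In the Cd14 and TLR4 pathway 10 of 17 genes were tested, with a median difference of 0.34 with 6 arrays and 0.05 with 5. Tlr4 itself was too dim on average to be tested, at 5.004 to 5.78 in WT and 4.72 to 5.66 in knockout, and its partner Ly96 was at 0.33 with 6 arrays (adjusted p = 0.829) and -0.24 with 4 (adjusted p = 0.296). Lbp, which delivers lipopolysaccharide to Cd14, and Ly86, a Cd180 partner found in B cells and myeloid cells, passed as higher at 0.62 and 1.61, and Tlr1 as lower at -0.54. With 6 arrays Tlr1 was at 0.09 (adjusted p = 0.967), so its direction turned. The Lbp WT mean was under the cutoff with 6 arrays (5.16) and with 5 (4.81). Lbp was thus tested only because the knockout arrays were high, and nothing is read from its passing. Of the kin of Adgre1, Adgre4, a myeloid receptor of the same family, was at 1.52 with 6 arrays (adjusted p = 0.548) and passed at 1.18 (adjusted p = 0.000569). All WT values of Adgre4 were under the cutoff, at 4.53, 4.52 and 4.64, so nothing is read from its p-values either. Adgre5, present on most leukocytes, passed as lower at -0.34 (adjusted p = 0.0398) but was at 0.22 with 6 arrays (adjusted p = 0.873).

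The interferon-induced transmembrane family was higher in 3 of its 4 tested genes. Ifitm3, which blocks virus entry, was at 3.62 with 6 arrays (adjusted p = 0.245), 3.10 with 5 (adjusted p = 0.0529) and 2.62 with 4 (adjusted p = 0.00155). Ifitm1 and Ifitm2 passed at 2.20 and 1.07, and Ifitm10 did not pass, at -0.19, 0.02 and -0.12 with 6, 5 and 4 arrays. Among pore proteins related to Mpeg1, C6 and Prf1 (perforin) did not pass in any of the 3 fits, with Prf1 at 0.40, 0.54 and 0.16. The lysozyme relatives Lyzl1, Lyzl4 and Lalba were too dim to be tested.

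Galectins other than Lgals3 had a median of 0.13 with 6 arrays over 7 tested genes, and 0.03 with 5. Lgals7 passed as higher at 0.80 and Lgals8 as lower at -0.47, though Lgals8 was at 0.03 with 6 arrays (adjusted p = 0.984). Of the fibronectin receptors and partners, 8 of 8 tested genes were below 0 with 5 arrays, as were 60.7% of all tested probe sets, with a median of -0.48 and 0 passing with 5 or 6 arrays. Itga4 and Itgb7, which pair as an integrin that binds fibronectin and gut addressin, passed as lower at -0.64 and -0.51, as did Itgav, Itgb1, Cd44 and Sdc4. With 6 arrays Itgav and Itgb1 were above 0, at 0.38 and 0.11, and the median of the 8 was -0.24. Of the transglutaminases, Tgm2, which acts inside and outside many cell types, was at 1.16 with 6 arrays (adjusted p = 0.829) and passed at 0.84 (adjusted p = 0.00272), and Tgm3 did not pass.

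**Figure D4:**
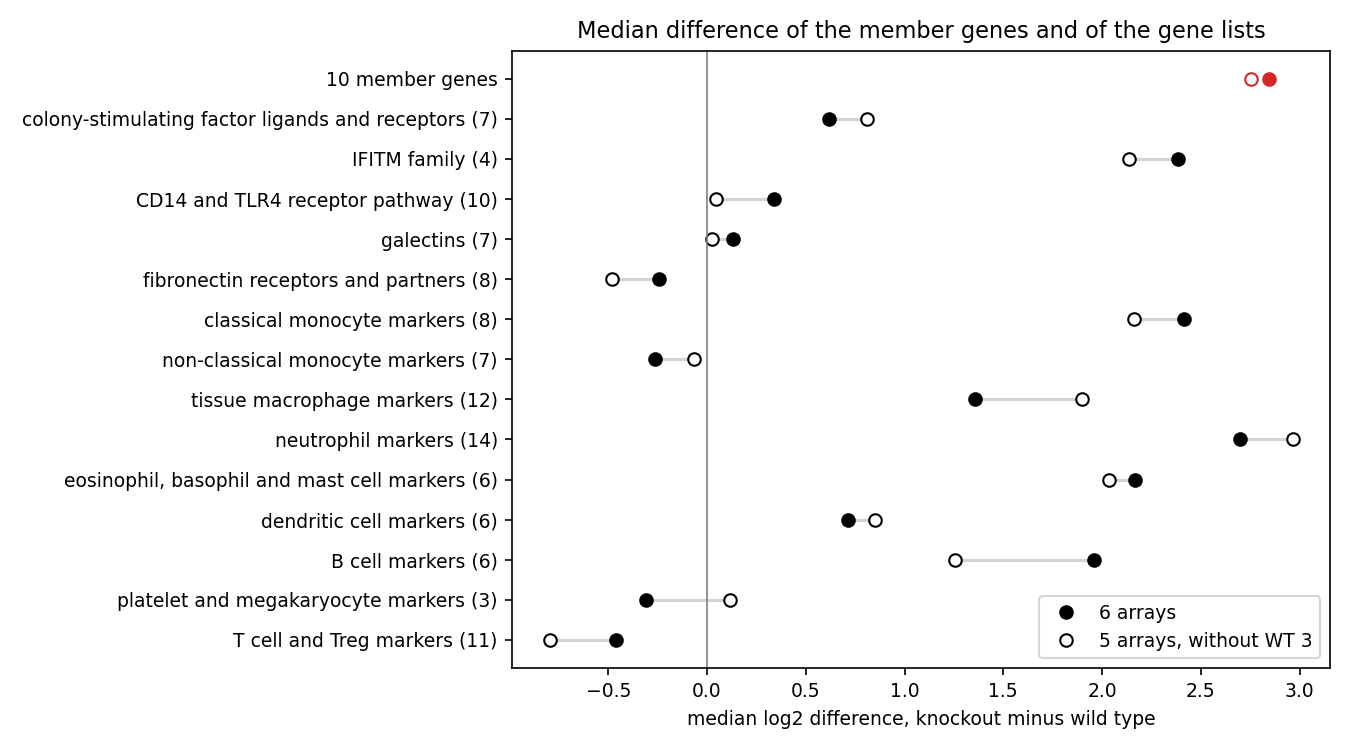
Median log2 difference, knockout minus WT, with 6 arrays (filled) and without WT replicate 3 (open), for the 10 genes (red, chosen on this contrast) and for lists with at least 3 tested genes (black, number tested in brackets). Over tested genes only, the T cell and Treg, non-classical monocyte and fibronectin receptor lists lay below 0 with both sets of arrays. The neutrophil list, the classical monocyte list, the interferon-induced transmembrane family and the eosinophil, basophil and mast cell list lay above 2 with both.

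Markers of the cell types that could carry the 10 genes were read in the same arrays. Of 18 classical monocyte markers 15 were on the array and 8 were tested, with a median of 2.41 with 6 arrays and 2.16 with 5. Those too dim to be tested had differences from -0.22 (Vcan) to 0.96 (Itgam) with 6 arrays. A marker dim in WT was tested only where knockout was high, so the median of the 8 is not that of the list. Chil3, which encodes a secreted lectin related to chitinases, was at 4.22 (SE 0.33, limma adjusted p = 0.0153), and Mgst1 passed without WT replicate 3 at 3.52 (adjusted p = 0.0324). All WT values of both genes were under the cutoff, at 4.23, 5.04 and 4.72 for Chil3 and 4.40, 5.13 and 4.36 for Mgst1. Both were thus tested only because the knockout arrays were high, and nothing is read from their p-values. Ccr2, the receptor that brings monocytes out of the marrow, was at 0.51 with 6 arrays (adjusted p = 0.832) and -0.36 with 5 (adjusted p = 0.369), and Vcan was under the cutoff on all 6 arrays. Their summed linear level lay between 560 and 1187 in WT and between 2576 and 6623 in knockout. Non-classical monocyte markers had medians of -0.27 and -0.07 over 7 tested genes, and Cx3cr1 and Spn were at -0.32 and -0.63 with 6 arrays (adjusted p = 0.861 and 0.829) and at 0.40 and -0.41 with 5 (adjusted p = 0.176 and 0.142).

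Tissue macrophage markers had a median of 1.36 with 6 arrays and 1.90 with 5 over 12 tested genes, and 0 passed in either fit, though 7 and 8 were higher at an unadjusted p under 0.05 (3.48% and 6.95% of all tested probe sets). Slc40a1, the iron exporter, was at 3.03 (adjusted p = 0.226) and Vcam1, an adhesion molecule of marrow and spleen macrophages, at 2.97 (adjusted p = 0.433). Their WT means, 4.70 and 4.99, were under the cutoff. With 4 arrays 9 of the 12 passed, all higher, beside 8.37% of all tested probe sets. In that fit 14 of 14 neutrophil, 6 of 6 eosinophil, basophil and mast cell and 5 of 8 classical monocyte markers also passed as higher. The same held for 5 of 6 B cell and 5 of 6 dendritic cell markers. Of 7 non-classical monocyte markers, 1 passed as higher and 1 as lower. Of the macrophage markers that passed, Cd68, Mertk, Mrc1, C1qa, C1qb, C1qc, Vcam1 and Slc40a1 averaged 4.55 to 5.05 in WT replicates 1 and 2. Those means are under the cutoff. Each of these lists held genes dim in WT that were tested only because other arrays were high, so nothing is read from these counts. The summed linear level of the tissue macrophage markers was 536 to 929 in WT and 1162 to 3526 in knockout.

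Neutrophil markers, with 14 of 16 listed genes tested and all 14 above 0 (63.2% of all tested probe sets were), had a median of 2.70, and 4 passed with 6 arrays and 9 with 5. Of those 9, Mmp8 and Cd177 averaged 4.65 and 4.91 in WT replicates 1 and 2, under the cutoff, so nothing is read from their passing. Camp, Lcn2 and Ltf, granule proteins, were at 5.12, 4.91 and 4.92 (limma adjusted p = 0.0133, 0.0133 and 0.026). S100a9, an inflammatory calcium-binding protein, passed without WT replicate 3 at 5.16 (adjusted p = 0.0124). Their summed linear level was 714 to 1661 in WT and 24330 to 35329 in knockout, so the groups did not overlap. Eosinophil, basophil and mast cell markers had a median of 2.17, and Prg2, an eosinophil granule protein, rose by 4.56 (adjusted p = 0.0054). Epx, Cpa3 and Mcpt8, granule enzymes of eosinophils, mast cells and basophils, passed without WT replicate 3 at 2.88, 1.63 and 2.44 (adjusted p = 0.00724, 0.0176 and 0.0245). The Epx WT mean was under the cutoff both with all arrays (5.09) and without WT replicate 3 (4.68). Epx was thus tested only because the knockout arrays were high, and nothing is read from its p-value. B cell markers had a median of 1.96 and 0 passed with 6 or 5 arrays, though 5 and 6 of 6 were higher at an unadjusted p under 0.05, beside the same 3.48% and 6.95%. Blnk and Cd22, B cell receptor signalling proteins, were at 2.44 and 0.97. Dendritic cell markers had a median of 0.71, and Batf3, a factor of their development, was at 0.48. B cell markers summed to 432 to 907 in WT and 1366 to 2287 in knockout.

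Platelets, which also hold factor XIII, and fibroblasts, which make fibronectin, were read in the same way. Pf4 and Ppbp, defining platelet genes, lay between 4.18 and 4.71 on all arrays, under the cutoff, and of 3 tested platelet markers 0 passed in the limma fits of 6, 5 or 4 arrays (0 and 1 were higher at an unadjusted p under 0.05 with 6 and 5). Itga2b and Gp9, platelet surface proteins, were at -0.29 and -0.31 with 6 arrays and at 0.31 and 0.12 with 5. Col1a1 and Col3a1, the fibroblast collagens, lay between 4.29 and 4.94. Of the 2 tested stromal markers, Dcn was at -0.61 with 6 arrays and 0.0017 with 5, and Thy1, which T cells also carry, at -0.26 and -0.54. T cell and Treg markers had a median of -0.46 with 6 arrays and -0.80 with 5, where 0 passed (1 and 8 were lower at an unadjusted p under 0.05, beside 0.597% and 14.6% of all tested probe sets). With 4 arrays 10 of 11 passed as lower, beside 10.3% of all tested probe sets. Ctla4 and Tnfrsf4, Treg surface receptors, were at -0.64 and -0.65 with 6 arrays. Their summed linear level was 6766 to 14243 in WT and 6072 to 10039 in knockout, so the ranges overlapped. The lowest WT value was that of replicate 3, and without it WT was at 14157 and 14243, above all knockout arrays. The part of other cells in the higher levels of the 10 genes was not tested.

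Other genes were ranked by likeness to the array profile of the 10, as the root-mean-square distance in log2 units between mean-centred values. Over 6 arrays the nearest were Fpr2 (0.19), Tyrobp (0.22), Wfdc21 (0.24), Mmp8 (0.26), Pygl (0.29), Slc40a1 (0.29), Slfn4 (0.30), Cd177 (0.37), Tgfbi (0.37) and Cd24a (0.39), beside a median distance of 1.62 over all genes compared. Over 5 arrays Wfdc21, Mmp8, Fpr2, Cd177, Tyrobp and Slfn4 were again among the nearest 10, joined by Hp, Anxa1, Mgst1 and Ifitm3. Fpr2 is a formyl peptide receptor of neutrophils and monocytes, and Tyrobp an adaptor used by many myeloid receptors. Fpr2 read 4.80, 4.93 and 5.36 in WT and 7.70, 9.22 and 7.84 in knockout. The ranking itself favours genes that are highest in knockout replicate 2, as the profile of the 10 is.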

How the data were processed

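Gene expression was measured on 6 one-colour arrays of biotin-labelled RNA. The deposited values are log2 expression per probe set, made by the authors with RMA per the submitters' processing notes. Which program ran RMA, and over which set of arrays, is not stated in the sources used here, so its background step could not be varied. Control probe sets (64 of 22690) were left out. Groups came from titles and genotype labels. Symbols came from the platform annotation, updated by gene ID through RefSeq (GRCm38.p6): 20380 probe sets had 1 symbol, 691 several and 1555 none.

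Probe sets in the lowest 40% by mean level were not tested, and 13 of the 15 probe sets of the 10 genes passed this filter. For the other 13576, limma 3.58.1 (R 4.3.3) compared the groups with lmFit and eBayes and no covariate. Benjamini-Hochberg adjustment covered all of them, at a threshold of 0.05. The fit was tested on simulated data. A gene is represented by its brightest probe set. Where a WT mean was under the cutoff, a fold is a lower bound, while log2 differences are given as measured. Array totals give no depth, and the number of arrays limits the precision.

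The 10 genes and the lists were chosen with earlier results of these data known. From each list, up to 4 genes past the threshold with 6 or 5 arrays were named by smallest p, otherwise the 2 with the smallest p without WT replicate 3, and the 10 genes nearest in profile over 6 and over 5 arrays. Other related and marker genes, among them Csf1, Csf2rb, Csf3r, Tlr1, Tlr4, Ly96, Ifitm2, Ifitm10, Ccr2, Vcan, Mpo, Elane, Prtn3, Ctsg, Pf4, Ppbp, Col1a1, Col3a1, Itgav, Itgb1, Cd44 and Sdc4, were named after their values were seen. Alternatives were other filters, further quantile normalization, median centring, a trended robust variance, a block for replicate number, omission of each array in turn, and WT replicate 3 with knockout replicate 2 left out. Figures were drawn with matplotlib 3.10.9.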

Additional observations from a re-analysis of the deposited data

How the results depend on the processing

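The number of probe sets that passed was 14 with 6 arrays. It was 8 with no filter on dim probe sets and 2537 without WT replicate 3 and knockout replicate 2. With each array left out it ran from 0, without knockout replicate 1 or 2, to 190, without WT replicate 3. The other filter, quantile normalization, median centring, trended variance and replicate block gave 10 to 15. The count of related genes that passed was 0 with 6 arrays, under every other alternative for the filter, scaling, variance or block, and with each array left out, and was 22 without WT replicate 3 and knockout replicate 2. The cause was not tested. The replicate numbers were not taken as pairs in the main fit. Same-numbered arrays had deviation correlations of 0.15, -0.09 and -0.14, and the replicate block gave 10 probe sets. As the deviations include WT replicate 3 and knockout replicate 2, which stood apart, they cannot tell whether the samples were paired. The median difference of the 10 genes was 2.41 to 3.11 with each array left out, 2.80 after quantile normalization and 2.61 with a gene's probe sets averaged. Of 100 single-gene values under the alternatives, 0 changed sign and 95 moved by less than 1 SD. The 5 others were Mpeg1 and Lgals3 in the 4-array fit, and Lyz1 (3.02), Csf1r (2.17) and Fn1 (1.06) with their probe sets averaged. Averaging could move only the 3 genes with several probe sets, and all 3 moved. As the genes were chosen for being higher in knockout, nothing is read from the count of signs. In an alternative added after seeing the data, knockout replicate 2 was highest for 13 of 13 tested probe sets of the 10 genes after quantile normalization and after median centring.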
